A study of Drosophila melanogaster with 8 samples.

Results

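The peptidoglycan recognition proteins (PGRPs) are a family of insect and mammalian proteins that bind peptidoglycan, the polymer of bacterial cell walls. Of the 19299 features in the deposited table, 10 were taken by name: the amidases PGRP-SC1a, PGRP-SC1b, PGRP-SC2, PGRP-LB and PGRP-SB1, the sensing receptors PGRP-LC, PGRP-LE, PGRP-SA and PGRP-SD, and the receptor inhibitor PGRP-LF. The choice was by gene name and not by a threshold on the measured values, but it was made with earlier results of these data known. All 10 had a mean of at least 0.1 RPKM and were among the 13249 genes compared. RPKM is a read number divided by the gene's length in kilobases and by the sample's assigned reads in units of 1000000.

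The study asked how quercetin (Que), a plant flavonol, acts on the aging intestine of Drosophila melanogaster. RNA was sequenced from 4 samples of Que-fed and 4 samples of control flies, which are called Que 1 to 4 and DMSO 1 to 4 here. All were females labelled wild type, 40 to 50 days old by the labels, and each sample was a pool of many midguts. The Que group received 10 µM Que in its food and the control group received DMSO, the solvent. The labels do not say whether the pools came from separately raised cultures. The p-values set the difference between the groups against the spread between pools of a group, which may be partly technical. No samples of young flies were compared.

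In the fly gut, bacterial peptidoglycan of the diaminopimelic acid type is sensed by PGRP-LC at the cell surface and by PGRP-LE inside the cell. Both activate the IMD pathway, whose transcription factor Relish induces antimicrobial peptide genes and also several PGRP genes. The catalytic PGRPs are amidases that cut peptidoglycan into fragments that signal poorly, and thereby hold the response to resident bacteria in check. PGRP-SA and PGRP-SD are secreted and act upstream of the Toll pathway, and PGRP-SD also assists the sensing of peptidoglycan by the IMD pathway. PGRP-LF is a membrane protein that binds PGRP-LC and blocks its signaling.

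The reads assigned to genes numbered 27253832 in Que 3, the lowest sample, and up to 35619139 in the others, and whole reads could be computed from 100% of the RPKM values. With limma and Benjamini-Hochberg adjustment, 0 of 13249 genes (0%) had an adjusted p under 0.05, and 479 had an unadjusted p under 0.05. voom on the recovered reads also gave 0 adjusted calls, and 450 genes at an unadjusted p under 0.05. Enterocyte markers (nub, Myo31DF and 4 digestive proteases) were abundant, with a summed level of 10108 to 13565 RPKM in Que and 8525 to 10216 RPKM in DMSO. The proteases Jon65Aiv, alphaTry and betaTry (means of 4973, 3987 and 1559 RPKM) made up most of this sum. The means of nub and Myo31DF were 56.7 and 64.9 RPKM, so the sum does not measure enterocyte content. Of the 6 hemocyte markers, Hml, NimC1, eater and He had means of 0.0824, 0.0356, 0.0485 and 0.0273 RPKM, Pxn had 0.4997 RPKM, and srp, at 5.44 RPKM, made up most of the list's sum of 4.91 to 8.31 RPKM.

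The amidases PGRP-SC1a and PGRP-SC1b had the highest fold changes with Que among the 10 genes, 1.44-fold and 1.36-fold, and were the 2 of 10 with an unadjusted limma p under 0.05. The background for that count, higher in Que at an unadjusted p under 0.05, was 1.68% of all genes tested. The 2 genes are near-identical copies whose reads may not have been separated, so they may not count as separate results. None of the 10 members had an adjusted p under 0.05, and none was lower in Que at an unadjusted p under 0.05. The receptor PGRP-LC was nearly the same in all 8 samples, and PGRP-SD differed more between samples of a group than between the groups. In bulk RNA, fewer cells of a type and less RNA per cell cannot be told apart, which holds for every value given here.

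**Figure D1:**
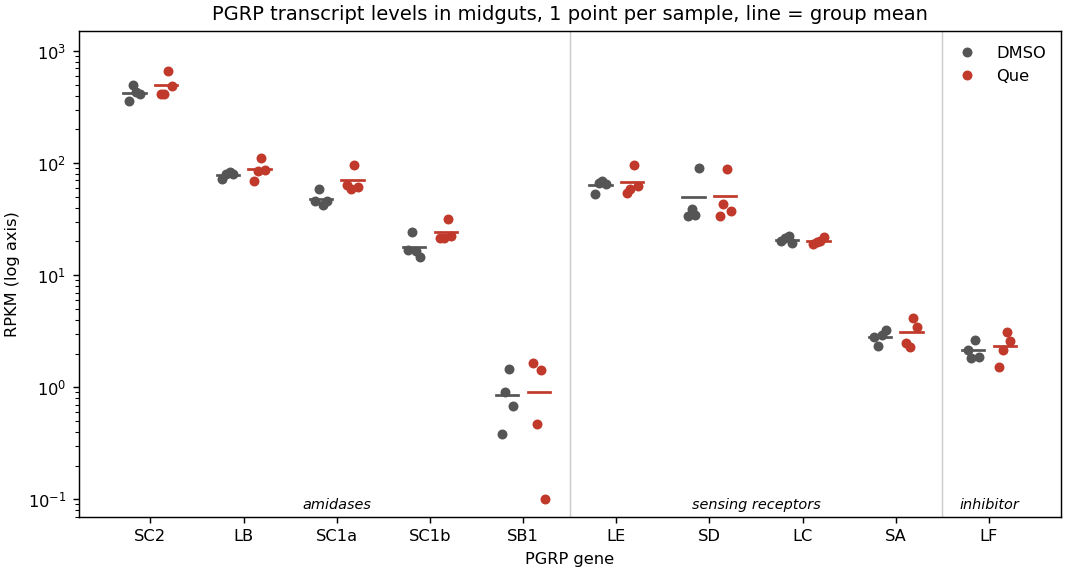
RPKM of the 10 PGRP genes on a log axis, with 1 point per sample, grey for DMSO and red for Que, and a line at each group mean (n = 4). The levels span from 0.102 RPKM for PGRP-SB1 in Que 4 to 666 RPKM for PGRP-SC2 in Que 3. PGRP-SC1a is the gene whose groups do not overlap, by a narrow margin (59.2 RPKM in Que 2, 58.2 RPKM in DMSO 2).

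The amidase genes PGRP-SC1a, PGRP-SC1b and PGRP-SC2 lie within 7963 bases on the plus strand of chromosome arm 2R (Release 6 plus ISO1 MT), and their secreted products digest peptidoglycan in the gut lumen. PGRP-SC1a (8709733 to 8710320) and PGRP-SC1b (8713446 to 8715094) are near-identical copies. The sources used here do not state how reads with several alignments were counted, so the division of reads between these copies is uncertain.

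PGRP-SC1a had 63.9, 59.2, 96.9 and 61.5 RPKM in Que 1 to 4, from 1144 to 1553 reads. In DMSO 1 to 4 it had 45.9, 58.2, 42.7 and 45.6 RPKM, from 838 to 1218 reads. The groups did not overlap, although Que 2 exceeded DMSO 2 by a narrow margin, and Que 3 stood far above the rest. The means were 70.4 ± 17.8 RPKM in Que and 48.1 ± 6.86 RPKM in DMSO (SD, n = 4 each). The log2 fold change was 0.53 (standard error 0.17, 95% interval 0.14 to 0.91), with a limma p of 0.0123 and an adjusted p of 0.946. The exact two-sided permutation test gave p = 0.0286, the smallest that 70 arrangements of 4 against 4 allow. PGRP-SC1a was thus 1 of 10 members with every Que sample above every DMSO sample, beside 0.876% of all genes tested. That separation rests on the uncertain division of reads between the copies. Without Que 3 its log2 fold change was 0.36, with an unadjusted limma p of 0.0134 and an adjusted p of 1. With each sample's trend of the values on gene length removed, an alternative added after the values were seen, the log2 fold change was 0.52 and the groups overlapped.

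PGRP-SC1b had 21.4, 21.3, 32.0 and 22.5 RPKM in Que 1 to 4 and 16.7, 24.0, 16.3 and 14.6 RPKM in DMSO 1 to 4. Que 3 was again the highest sample, and DMSO 2 lay above the 3 other Que samples, so the groups overlapped. The means were 24.3 ± 5.15 RPKM in Que and 17.9 ± 4.19 RPKM in DMSO (SD, n = 4 each). The log2 fold change was 0.44 (95% interval 0.03 to 0.86), with an unadjusted limma p of 0.03999, an adjusted p of 0.946 and an exact permutation p of 0.114. Without Que 3 the log2 fold change was 0.30 and its unadjusted limma p was 0.104, and without DMSO 4 they were 0.35 and 0.115.

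The copies followed each other across the samples, though their reads may not have been separated. PGRP-SC1a held 0.974 to 1.08 reads for each read of PGRP-SC1b in Que and 0.863 to 1.12 in DMSO, so neither group had a higher ratio throughout. Their reads together were 69.9 to 109.7 in Que and 50.8 to 73.8 in DMSO per 1000000 assigned reads, ranges that overlap. DMSO 2 (73.8) lay above Que 1 (72.8), Que 2 (69.9) and Que 4 (73.3). Their RPKM differ mainly through gene length. PGRP-SC1b is counted on 1649 bases, the length of its longest annotated exon, and PGRP-SC1a on 588. On the shorter annotated exon of 626 bases, the mean of PGRP-SC1b over all 8 samples would be 55.6 RPKM in place of 21.1 RPKM, which leaves its fold change as it is.

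PGRP-SC2 (chromosome arm 2R, 8716950 to 8717695) was the most abundant member. It had 416, 410.0, 666 and 485 RPKM in Que 1 to 4 and 358, 498, 430.2 and 412 RPKM in DMSO 1 to 4. Que 3 was the highest sample, and the others of both groups intermingled. The means were 494 ± 119.7 RPKM and 425 ± 57.9 RPKM (SD, n = 4 each), with a log2 fold change of 0.20 (95% interval -0.19 to 0.59, limma p = 0.274, exact permutation p = 0.457). This interval includes the log2 fold change of 0.44 found for PGRP-SC1b. Without Que 3 the log2 fold change of PGRP-SC2 was 0.05.

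The level of PGRP-SC1a relative to PGRP-SC2 in the same sample was also compared, a ratio chosen after the values were seen and therefore given with no test. It was 0.154, 0.144, 0.145 and 0.127 in Que 1 to 4 and 0.128, 0.117, 0.0992 and 0.111 in DMSO 1 to 4. All Que samples other than Que 4 lay above every DMSO sample. In Que 3 both genes were high together, so that its ratio lay between those of Que 1 and Que 2.

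PGRP-LB (chromosome arm 3R, 11452849 to 11460552, minus strand) encodes an amidase with secreted and intracellular forms that removes diaminopimelic acid type peptidoglycan. It had 69.5, 85.6, 112 and 87.1 RPKM in Que 1 to 4 and 72.0, 79.6, 82.5 and 80.2 RPKM in DMSO 1 to 4. The lowest and the highest of the 8 values were both in the Que group. The means were 88.4 ± 17.4 RPKM and 78.6 ± 4.54 RPKM (SD, n = 4 each), with a log2 fold change of 0.15 (95% interval -0.16 to 0.46, limma p = 0.296, exact permutation p = 0.343). Without Que 3 the log2 fold change of PGRP-LB was 0.033, and without Que 1 it was 0.26. The table gives 1 value for its 6 annotated transcripts, so secreted and intracellular forms were not separated. PGRP-LB lies within the span of CG17230 on the other strand but shares 0 exon bases with it.

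PGRP-SB1 (chromosome arm 3L, 16727299 to 16727989, minus strand) encodes an amidase best known from the response to systemic infection. Its reads were few: 32, 10, 24 and 2 in Que 1 to 4 and 8, 20, 30 and 14 in DMSO 1 to 4. These gave 0.102 to 1.63 RPKM in Que and 0.381 to 1.44 RPKM in DMSO, so the DMSO range lay inside the Que range. The log2 fold change of -0.24 had a 95% interval from -1.75 to 1.27 (exact permutation p = 0.80), an interval that includes a difference of the size seen for PGRP-SC1a. All 8 read numbers were even. Of all values of 11 to 50 reads in a sample, 63.5% to 67.4% were even, so the reads behind a value are not independent of each other and counting errors computed from them are too small.

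**Figure D2:**
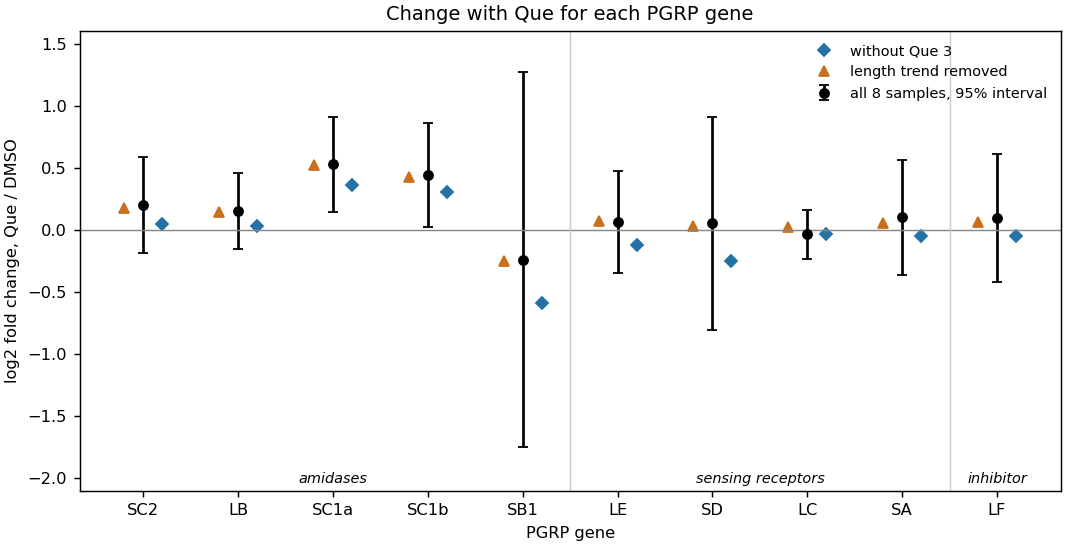
Log2 fold change of each PGRP gene, Que against DMSO, with all 8 samples (black circle with the 95% interval of limma), without Que 3 (blue diamond) and with the length trend removed (orange triangle). The intervals of PGRP-SC1a (0.14 to 0.91) and PGRP-SC1b (0.03 to 0.86) lie above 0 and the others include 0, and leaving out Que 3 moves PGRP-SD from 0.05 to -0.25.

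Among the sensing receptors, PGRP-LC (chromosome arm 3L, 9338810 to 9348336, plus strand), the membrane receptor of the IMD pathway, varied least. It had 19.1, 19.8, 20.3 and 21.9 RPKM in Que 1 to 4 and 20.04, 21.4, 22.3 and 19.4 RPKM in DMSO 1 to 4. The groups overlapped throughout, and Que 3 lay in the middle of them. The means were 20.3 ± 1.17 RPKM and 20.8 ± 1.32 RPKM (SD, n = 4 each), with a log2 fold change of -0.03 (95% interval -0.23 to 0.16, limma p = 0.701, exact permutation p = 0.629). Its within-group SD of 0.087 on the log2 scale was below the median of 0.191 over the 4936 genes with at least 10 RPKM. The table holds 1 value for its 10 annotated transcripts, whose products differ in the part that binds peptidoglycan, and a shift between them was not analysed here.

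PGRP-LE (chromosome X, 15801153 to 15803880, minus strand), the intracellular receptor of the same pathway, was expressed above PGRP-LC. It had 53.9, 58.2, 96.4 and 63.1 RPKM in Que 1 to 4 and 52.6, 67.0, 69.8 and 65.1 RPKM in DMSO 1 to 4. Apart from Que 3, every Que sample lay below the 3 highest DMSO samples. The log2 fold change was 0.06 (95% interval -0.35 to 0.47, limma p = 0.738, exact permutation p = 0.886) and without Que 3 it was -0.12.

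PGRP-SA (chromosome X, 11561643 to 11562779, plus strand) encodes the secreted receptor for lysine-type peptidoglycan upstream of Toll. It had 2.499, 2.31, 4.18 and 3.45 RPKM in Que 1 to 4 and 2.80, 2.34, 2.94 and 3.24 RPKM in DMSO 1 to 4. The Que samples lay on both sides of the DMSO samples, and the highest value was again that of Que 3. The log2 fold change was 0.10 (95% interval -0.36 to 0.56, limma p = 0.633, exact permutation p = 0.657).

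PGRP-SD (chromosome arm 3L, 7651180 to 7651900, plus strand) had 33.4, 43.2, 87.9 and 37.6 RPKM in Que 1 to 4 and 33.4, 39.3, 34.5 and 90.7 RPKM in DMSO 1 to 4. In each group 1 sample was more than double the others, Que 3 with 1727 reads and DMSO 4 with 2141 reads. The means were 50.5 ± 25.2 RPKM and 49.5 ± 27.6 RPKM (SD, n = 4 each), with a log2 fold change of 0.05 (95% interval -0.80 to 0.91, limma p = 0.892, exact permutation p = 0.80). Without Que 3 the log2 fold change was -0.25, and without DMSO 4 it was 0.39. PGRP-SD shares 35 exon bases, 4.85% of its exon length, with CG7492 on the other strand.

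PGRP-LF (chromosome arm 3L, 9349609 to 9351489, plus strand), the inhibitor, starts 1272 bases beyond the end of PGRP-LC. It had 1.502, 2.14, 3.09 and 2.59 RPKM in Que 1 to 4 and 2.17, 1.82, 2.65 and 1.87 RPKM in DMSO 1 to 4. Both the lowest and the highest sample were in the Que group, and the log2 fold change was 0.09 (95% interval -0.42 to 0.61, limma p = 0.686, exact permutation p = 0.80). Of its exon bases, 602 (44.4%) are shared with UGP on the other strand, which had a mean of 5.60 RPKM. The strand setting of the counting is not given in the sources used here, so part of the PGRP-LF value may be reads of UGP.

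Taken as classes, the 5 amidases had a median log2 fold change of 0.20, with 4 of 5 above 0, and the 4 sensing receptors a median of 0.06, with 3 of 4 above 0. Over all genes tested the median was -0.02 and 47.0% of genes were above 0. Without Que 3 the class medians were 0.05 for the amidases and -0.08 for the receptors. The mean amidase level minus the mean receptor level in the same sample, on the log2 scale with each gene centred over the 8 samples, was 0.45, 0.05, 0.16 and -0.32 in Que 1 to 4. It was -0.17, 0.23, 0.06 and -0.47 in DMSO 1 to 4. The groups overlapped, and their means of 0.09 ± 0.32 and -0.09 ± 0.30 (SD, n = 4 each) differed by 0.17, less than the spread within a group. Leaving out PGRP-SB1 for its few reads, a choice made after the values were seen, gave means of 0.14 ± 0.058 and -0.14 ± 0.29. The groups overlapped here too, since DMSO 2 (0.19) lay above every Que sample but Que 1 (0.22).

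Summed over the family, the 10 members held 663 of every 1000000 assigned reads in DMSO 1, the lowest sample, and 1153 in Que 3, the highest. PGRP-SC2 made up 39.4% to 44.3% of these reads. All amidases together made up 69.5% to 70.5% in Que and 64.3% to 69.96% in DMSO. The summed amidase level was 572 to 908 RPKM in Que and 493 to 661 RPKM in DMSO, and that of the receptors was 109 to 209 RPKM in Que and 109 to 178 RPKM in DMSO. For both classes the ranges of the groups overlapped.

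Per gene length and over all 8 samples, the order of levels was PGRP-SC2 (459 RPKM), PGRP-LB (83.5), PGRP-LE (65.7), PGRP-SC1a (59.2), PGRP-SD (50.0), PGRP-SC1b (21.1), PGRP-LC (20.5), PGRP-SA (2.97), PGRP-LF (2.23) and PGRP-SB1 (0.878). Neighbours were compared within samples by an exact sign-flip permutation test over 9 pairs, whose smallest possible p is 0.0078. The pairs and their directions came from the same values that were tested. The p-values thus do not test an order set beforehand and do not rank the steps. Each is at its floor whenever all 8 samples go the same way, whatever the size or spread of the step. PGRP-SC2 was 5.46-fold above PGRP-LB, and PGRP-LC was 6.83-fold above PGRP-SA, each in 8 of 8 samples (exact adjusted p = 0.0141). The steps from PGRP-LB to PGRP-LE (1.28-fold), from PGRP-SD to PGRP-SC1b (2.23-fold) and from PGRP-SA to PGRP-LF (1.32-fold) had the same exact adjusted p and also held in 8 of 8 samples. PGRP-LF was 2.83-fold above PGRP-SB1 in 7 of 8 samples (exact adjusted p = 0.0234). The steps from PGRP-LE to PGRP-SC1a (exact adjusted p = 0.246), from PGRP-SC1a to PGRP-SD (0.201) and from PGRP-SC1b to PGRP-LC (0.992) did not exceed the spread over samples. The place of PGRP-SC1b rests on the length taken for it. Among all genes tested, PGRP-SC2 stood at the 98.4th percentile of level and PGRP-SB1 at the 29.5th.

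**Figure D3:**
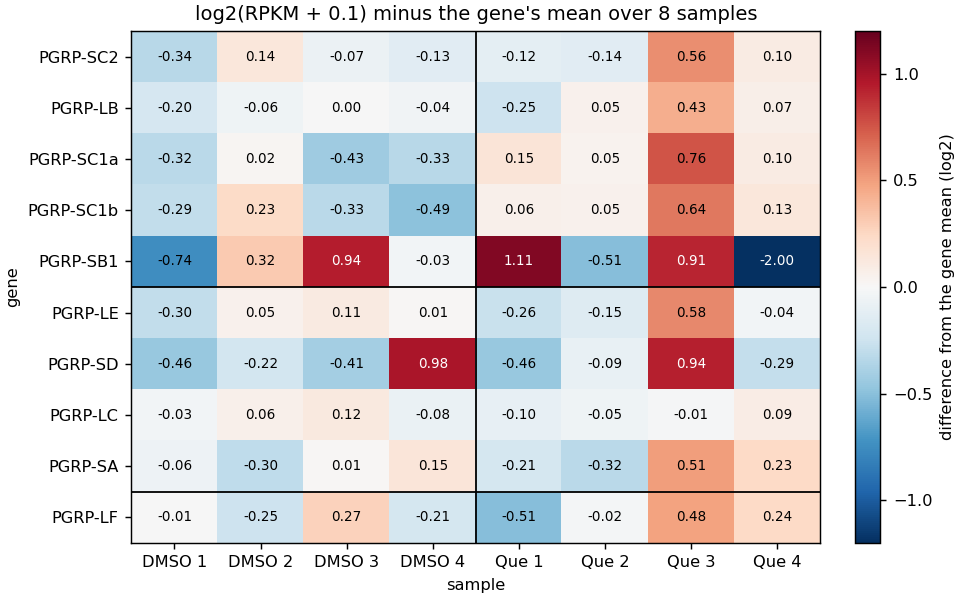
Difference of log2(RPKM + 0.1) from the gene's mean over 8 samples, for the 10 PGRP genes (lines separate amidases, sensing receptors and the inhibitor) in the DMSO samples (left) and the Que samples (right), with the color scale ending at 1.2 in either direction. The Que 3 column is above 0 for all genes but PGRP-LC (-0.01), and DMSO 4 is high for PGRP-SD (0.98).

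Que 3 was the highest Que sample for 8 of 10 members, the exceptions being PGRP-SB1 and PGRP-LC, beside 30.5% of all genes tested. Relative to the mean of the other Que samples it had 1.57-fold PGRP-SC1a, 1.47-fold PGRP-SC1b, 1.53-fold PGRP-SC2, 1.38-fold PGRP-LB, 1.65-fold PGRP-LE and 2.31-fold PGRP-SD. PGRP-LC was 1.003-fold in the same comparison. The trend of the values on gene length in Que 3 amounted to between -0.11 (PGRP-LC) and 0.099 (PGRP-SA) on the log2 scale for the members. With this trend removed, Que 3 lay between 0.098 (PGRP-LC) and 0.89 (PGRP-SB1) above the gene's mean over the 8 samples. It was then also the highest Que sample for PGRP-LC, so that exception depends on the length trend. DMSO 4 was the highest DMSO sample for 2 of 10 members, PGRP-SD (2.54-fold the mean of the others) and PGRP-SA (1.203-fold), beside 21.0% of all genes tested. Every other member lay between 0.756-fold and 1.03-fold there. The parts of these samples in the differences between the groups are given by the values without them, and what set the samples apart was not tested.

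PGRP-SD shared its highest samples with many of the antimicrobial peptide genes, the outputs of the IMD and Toll pathways. Of the 14 such genes tested, 11 were highest in Que 3 among the Que samples and in DMSO 4 among the DMSO samples, as PGRP-SD was, beside 9.49% of all genes tested. DptA, a diptericin gene, was 3.39-fold in Que 3 and 4.18-fold in DMSO 4 relative to the other samples of the group. AttD, an attacin gene, was 2.11-fold and 2.20-fold, close to the 2.31-fold and 2.54-fold of PGRP-SD. Not all 11 had a clear peak. CecC was 1.11-fold in Que 3 and 1.29-fold in DMSO 4, and CecB and Dro had means of only 0.111 and 0.749 RPKM. Que 3 and DMSO 4 belong to different groups. Between Que and DMSO, 0 of the 14 antimicrobial peptide genes had an unadjusted limma p under 0.05, beside 479 of all 13249 genes tested.

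**Figure D4:**
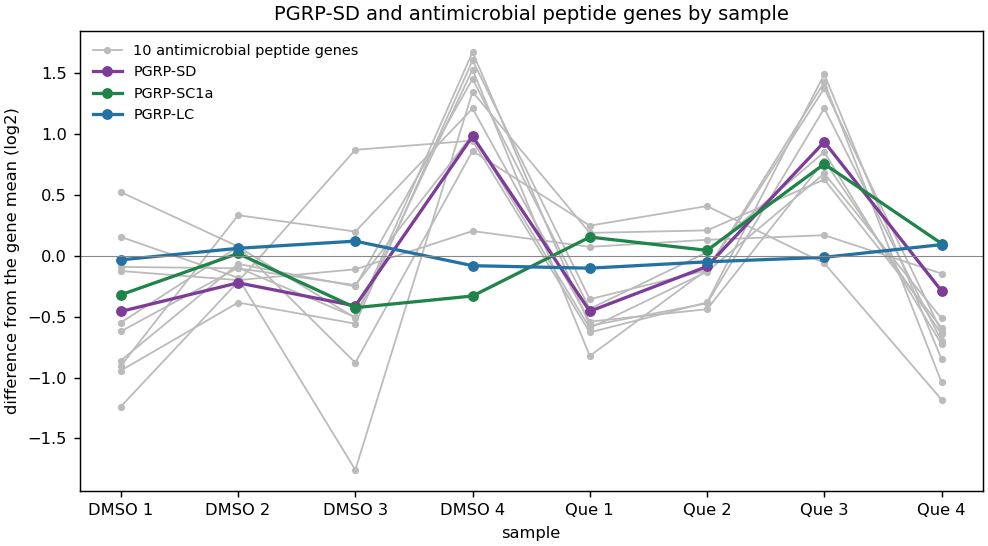
Difference of log2(RPKM + 0.1) from the gene's mean in each sample for PGRP-SD, PGRP-SC1a, PGRP-LC and, in grey, the 10 antimicrobial peptide genes with at least 1 RPKM. Lines join the values of 1 gene and imply no order of samples. PGRP-SD peaks in Que 3 (0.94) and DMSO 4 (0.98), PGRP-SC1a is high in Que 3 (0.76) and low in DMSO 4 (-0.33), and PGRP-LC stays near 0.

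The other genes around the family were compared by lists taken from textbook pathways. Of 14 IMD pathway genes, 0 had an unadjusted limma p under 0.05, beside 479 of all 13249 genes tested. At that background, 0 in a list this short says little about the list. Their median log2 fold change was -0.06. The smallest limma p among them was that of pirk, an intracellular inhibitor of PGRP-LC and PGRP-LE signaling, with 760 ± 137 RPKM in Que and 941 ± 107 RPKM in DMSO (SD, n = 4 each, log2 fold change -0.32, limma adjusted p = 0.946, exact permutation p = 0.114). By the exact permutation test, 2 others reached the smallest possible p of 0.0286, in opposite directions and with a limma adjusted p of 0.946 each. These were IKKbeta, a kinase of the pathway (log2 fold change -0.20), and Diap2, a ubiquitin ligase (log2 fold change 0.17). For Diap2 every Que sample lay above every DMSO sample, beside 0.876% of all genes tested. The share of all genes in the direction of IKKbeta was not computed, so whether 2 of 14 is unusual was not tested. Of 16 Toll pathway genes, 0 had an unadjusted limma p under 0.05, beside the same background, and the median was -0.03. The adaptor tub had the smallest limma p (log2 fold change -0.15, limma adjusted p = 0.946, exact permutation p = 0.171). Tl, the Toll receptor, had a lower exact permutation p of 0.0571 (log2 fold change -0.34) at a mean of 0.161 RPKM in Que and 0.231 RPKM in DMSO. Of the 14 antimicrobial peptide genes, with a median of -0.16, Mtk had the smallest limma p (log2 fold change 0.70, limma adjusted p = 0.946, exact permutation p = 0.0286) at a mean of 0.295 RPKM in Que and 0.164 RPKM in DMSO.

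Gut lysozymes are secreted enzymes that also cut peptidoglycan. LysB (log2 fold change 0.56), LysE (0.51), LysD (0.51) and LysS (0.42), 4 of 7 tested, were higher in Que at an unadjusted limma p under 0.05, with an adjusted p of 0.946 each, beside 1.68% of all genes tested. Their exact permutation p-values were 0.0857, 0.0571, 0.0857 and 0.0286. Several of these genes are close copies, so their values share the doubt raised for PGRP-SC1a and PGRP-SC1b. The median of the 7 lysozymes was 0.44, and that of the 5 PGRP amidases 0.20.

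Of the 6 enterocyte markers, 4 had a log2 fold change above 0 and the median was 0.20. The proteases alphaTry (0.33, exact permutation p = 0.0571) and betaTry (0.36, exact permutation p = 0.0857) were highest among them, and betaTry alone passed 0.05 before adjustment (limma adjusted p = 0.946), whereas nub (-0.19) and Myo31DF (-0.09), which define enterocytes, were below 0. Their part in the PGRP-SC1a and PGRP-SC1b values was not tested. Progenitor markers summed to 16.6 to 26.4 RPKM in Que and 19.8 to 23.7 RPKM in DMSO. Fat body markers summed to 4.08 to 6.67 RPKM and 4.83 to 6.55 RPKM, and for both lists the ranges overlap. These sums were mostly esg (mean of 18.2 RPKM) and fit (4.23 RPKM), so they do not measure cell content. The stem cell marker Dl had 2.77 ± 0.422 RPKM in Que and 3.30 ± 0.149 RPKM in DMSO (SD, n = 4 each). Its log2 fold change was -0.26 (limma adjusted p = 0.946, exact permutation p = 0.0571), beside 0.03 for esg.

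The family has further members in the table. PGRP-LA, which lies 473 bases from PGRP-LC, had 8.40 to 11.6 RPKM in Que and 10.5 to 11.7 RPKM in DMSO, with a log2 fold change of -0.11 (limma p = 0.388, exact permutation p = 0.371). PGRP-LD had 1.70 to 3.23 RPKM in Que and 1.31 to 3.61 RPKM in DMSO, with a log2 fold change of 0.25 (exact permutation p = 0.571), and 90.0% of its exon bases are shared with Pmi. No feature was found under the name PGRP-SB2, which was therefore not analysed here.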

How the data were processed

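The authors trimmed the reads with Trimmomatic 0.36, collapsed duplicates into consensus sequences, aligned them with STAR 2.5.3a, counted them per gene with featureCounts and deposited RPKM per sample. Strand setting and treatment of multiple alignments are not given in the sources used here. The product of RPKM and gene length in kilobases added up to 1000000 per sample, and 100% of values gave whole reads within 0.01 read. Samples were grouped by the labels.

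Members and lists were chosen with earlier results of these data known. Named genes were the 10 members, further PGRP genes, overlapping genes, the genes of each pathway list with an unadjusted p under 0.05 (otherwise the smallest p), and for 4 members the 3 genes of at least 1 RPKM with the nearest profile. Genes averaging 0.1 RPKM or more were fitted as log2(RPKM + 0.1) with limma 3.58.1 in R 4.3.3 (intensity trend, two-sided, Benjamini-Hochberg adjustment), so the folds of low genes are understated. Exact permutation tests and figures used Python 3.11.15, SciPy 1.17.1, NumPy 2.4.6, pandas 2.3.3 and matplotlib 3.10.9. The fit was tested on simulated data. Alternatives were 2 pseudocounts, 2 filters, 2 scalings, no intensity trend, voom on reads, the replicate number as a block, each sample left out and, added after the values were seen, removal of a loess trend on gene length (span 0.5, genes over 300 bases). Sequences were not analysed here.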

Additional observations from a re-analysis of the deposited data

Results flagged for a closer look

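A single sample stood apart in 3 of the 24 sets of 4 values examined (12 PGRP genes in each group). Chance alone flags about 1 in 20 groups, and these sets are not independent of each other. The gap between Que 3 and the next sample made up 0.876 of the range of PGRP-SC1a in the Que group (96.9 RPKM against 59.2 to 63.9 RPKM). For PGRP-SC1b in the same group the share was 0.881 (32.0 RPKM against 21.3 to 22.5 RPKM). In the DMSO group, the gap below DMSO 4 made up 0.897 of the range of PGRP-SD (90.7 RPKM against 33.4 to 39.3 RPKM).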

How the results depend on the processing

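Over 18 alternatives, PGRP-SC1a kept a log2 fold change of 0.36 (without Que 3) to 0.62 and an unadjusted limma p under 0.05 in all 18, with a smallest adjusted p of 0.540. PGRP-SC1b ranged from 0.30 to 0.59 and had an unadjusted p under 0.05 in 11 of 18. The number of genes with an adjusted p under 0.05 was 0 with all samples, 2 with no filter, 3 with empirical Bayes without the trend and 0 to 3 when 1 sample was left out, and none was a member. Leaving out 1 sample gave -0.119 to 0.161 for PGRP-LE, -0.0512 to 0.225 for PGRP-SA, -0.25 to 0.39 for PGRP-SD, -0.0504 to 0.28 for PGRP-LF and -0.651 to 0.384 for PGRP-SB1, all crossing 0. With the length trend removed, PGRP-LC had 0.0231. The amidase median ranged from 0.0468 to 0.384, the receptor median from -0.0849 to 0.175 and their per-sample difference from 0.042 to 0.305. With a minimum of 1 RPKM PGRP-SB1 dropped out. The causes were not tested.

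Same-numbered samples correlated at 0.0127 to 0.227, not all above the 0.1 set for pairing, and differently numbered ones at -0.195 to 0.148. Whether the numbers pair the samples is thus not settled, and the main fit left them unpaired. With a replicate block, 0 genes had an adjusted p under 0.05. An unadjusted limma p under 0.05 was then found for 1117 genes, against 479 without the block. The log2 fold change of PGRP-SC1a was 0.53 with the block (unadjusted limma p of 0.0256). That of PGRP-SC1b was 0.44 (unadjusted limma p of 0.0513), and the limma adjusted p was 0.589 for both. Taking PGRP-SC1a and PGRP-SC1b as 1 locus was not run, since whether their rows share reads is not known. PGRP-SB1 had 2 to 32 reads, for which the counting error is at least 70.7% to 17.7%, and its within-group SD on the log2 scale was 1.13.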

Other observations

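The genes outside the family whose profiles over the 8 samples were most like those of single members were looked up by the root mean square difference of centred log2(RPKM + 0.1), among 9143 genes of at least 1 RPKM. Such likeness is a description over 8 samples that share their libraries. Nearest to PGRP-SC1a were H2.0 (0.134), CG14687 (0.138) and CG5080 (0.140). Nearest to PGRP-SC2 were Mlc1, a muscle myosin light chain (0.068), htl, a fibroblast growth factor receptor (0.079), and Jon25Biii, a digestive protease (0.086). The visceral muscle markers, a list that holds Mlc1, summed to 823 to 1324 RPKM in Que and 789 to 1109.7 RPKM in DMSO, and their part in the PGRP-SC2 values was not tested. PGRP-LB lay nearest to CG14194 (0.041), Rho1 (0.046) and Cndp2 (0.053), and PGRP-LC nearest to CG8199 (0.031), Dsor1 (0.047) and Atg4a (0.047). These differences are not scaled to how much a gene varied, so they cannot be ranked between members. The root mean square of the centred values themselves was 0.353 for PGRP-SC1a, 0.253 for PGRP-SC2, 0.194 for PGRP-LB and 0.077 for PGRP-LC.

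Within the family, the closest pairs were PGRP-SC2 with PGRP-LE (0.113), PGRP-SC1a with PGRP-SC1b (0.114), PGRP-LB with PGRP-LE (0.117) and PGRP-LB with PGRP-SC2 (0.132). The reads of PGRP-SC1a and PGRP-SC1b may not have been separated, and the part of this in their likeness was not tested. For PGRP-SD, looked up after its values were seen, CG12934 (0.175), CG18088 (0.176) and the attacin gene AttD (0.199) were nearest.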
